A study of Homo sapiens with 12 samples.

Results

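ATF4 is the transcription factor through which mammalian cells answer a shortage of amino acids and other stresses. This account covers ATF4 itself and 30 genes known as its targets or partners in amino acid synthesis, amino acid uptake, one-carbon metabolism and stress signalling. The 31 members were taken by gene symbol, from a list drawn up with earlier results of these data known, and all 31 were found once among the 56104 gene IDs of both count tables. The question was how newly made and steady-state RNA of these genes differed between cells with and without PPM1G, a nuclear serine/threonine phosphatase of the PP2C family.

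The 12 libraries fall into 4 groups of 3. The cells were HCT116, an established human colorectal carcinoma line, at passages under 15, either control cells (Ctrl) or PPM1G knockout cells (KO), with no other treatment named. In 4sU-seq, cells were pulsed for 10 min with 500 µM 4-thiouridine, a uridine analogue that enters RNA as it is made, and the labelled RNA was pulled down, so its counts report newly made RNA. RNA-seq of Ctrl and KO cells reports steady-state RNA. ERCC spike-in RNA was added to all libraries. The labels describe the 4sU-seq dishes as biological replicates. They do not describe the RNA-seq cultures, so p-values there measure only the spread between these libraries, which may be technical. Whether the KO cells are 1 clone, which site was edited and what the Ctrl line carries are not stated in the labels, so an effect of PPM1G loss and a difference between lines cannot be told apart.

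When amino acids run short or the endoplasmic reticulum is stressed, protein kinases phosphorylate the initiation factor eIF2. Translation then slows in general, while ATF4 mRNA, which carries short upstream reading frames, is translated more. ATF4 protein pairs with C/EBP family members and switches on genes for amino acid synthesis and uptake, for the mitochondrial folate pathway and, if stress goes on, for growth arrest and death. ATF4 activity is therefore set largely on its protein, which neither assay measured.

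Each 4sU-seq library held 79403238 to 101884166 gene counts and each RNA-seq library 30962756 to 42479828. Levels are given as CPM, the usual depth-scaled gene count, with library sizes adjusted by the trimmed mean of M values (TMM). In every sentence with library values the Ctrl libraries come first and the KO libraries second, each in the order of their replicate numbers. Changes are log2 fold changes of KO over Ctrl with their standard errors, and a gene is called where the adjusted p of edgeR is below 0.05. PPM1G RNA was lower in every KO library: 242, 271 and 235 against 98.9, 144 and 104 CPM in 4sU-seq, and 326, 293 and 331 against 97.9, 95.0 and 98.0 CPM in RNA-seq. The epithelial markers EPCAM (343 to 435 CPM) and KRT8 (1252 to 1482 CPM) were high in all RNA-seq libraries. The fibroblast genes COL1A2, DCN and LUM and the T cell gene CD3E had 0 counts there. The fibroblast gene COL1A1 went the other way, at 4.15 to 10.8 CPM in RNA-seq. The 4sU-seq library KO 2 stood apart from the other KO libraries: it was the highest of the 3 for 20 of the 28 tested members, and for 46.9% of all genes. It was the lowest of the 3 for 7 members and for 45.2% of all genes. Members whose 4sU-seq call changed without KO 2 are given with and without KO 2.

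In newly made RNA, 13 of the 28 members with enough counts to test rose in KO cells and none fell, against 12.6% of all 21236 tested genes called higher and 6.98% called lower. The median log2 change of the tested members was 0.48, and that of all genes was 0.050. In steady-state RNA, 12 of 29 tested members rose and 9 fell, where 21.5% of all 20415 tested genes were called higher and 26.8% lower. The members' median there was −0.043 and that of all genes 0.0014. In 1 fit over all 12 libraries, which shares the spread of both assays, 6 members rose and 5 fell in RNA-seq. Of all genes 4239 were called in that fit, 50.8% of them higher, against 9871 and 44.6% in the main fit. The count of 0 lower members in 4sU-seq was also 0 at an unadjusted p below 0.05 and by DESeq2, while 16 members were higher at an unadjusted p below 0.05. DESeq2 called 5518 of all genes, 56.0% of them higher, and all genes were not counted at an unadjusted p. Without the library KO 2 the count of 0 lower members did not hold. Then 14 members were called higher and 4 lower, namely PSPH, SHMT2, SLC3A2 and SLC7A5. Of all genes 11673 were called in that setting, 47.2% of them higher, against 4166 and 64.4% with KO 2. The 4sU-seq calls given later without KO 2 come from the same fit. Leaving out Ctrl 1, Ctrl 2 or Ctrl 3 left 7, 8 and 8 members called higher, and 1322, 1478 and 1710 of all genes called. Scaling to the ERCC counts moved the 4sU-seq median of all genes to 0.27 and left 6 members called higher, CHAC1, DDIT3, DDIT4, GDF15, NUPR1 and SESN2. Of all genes 716 were called under this scaling, 93.9% of them higher.

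Library by library, in 4sU-seq all 3 KO libraries lay above all 3 Ctrl libraries for 16 of 28 members, below them for 1, and the groups overlapped for 11; of all genes, 20.6% lay above and 17.8% below. In RNA-seq 13 members lay above, 10 below and 6 overlapped, where 26.1% of all genes lay above and 29.9% below. Of the 31 members, 10 were called higher in both assays, and no member was called in opposite directions or lower in both. The same counts over all genes were not made, so these cannot be read as particular to the members.

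**Figure D1:**
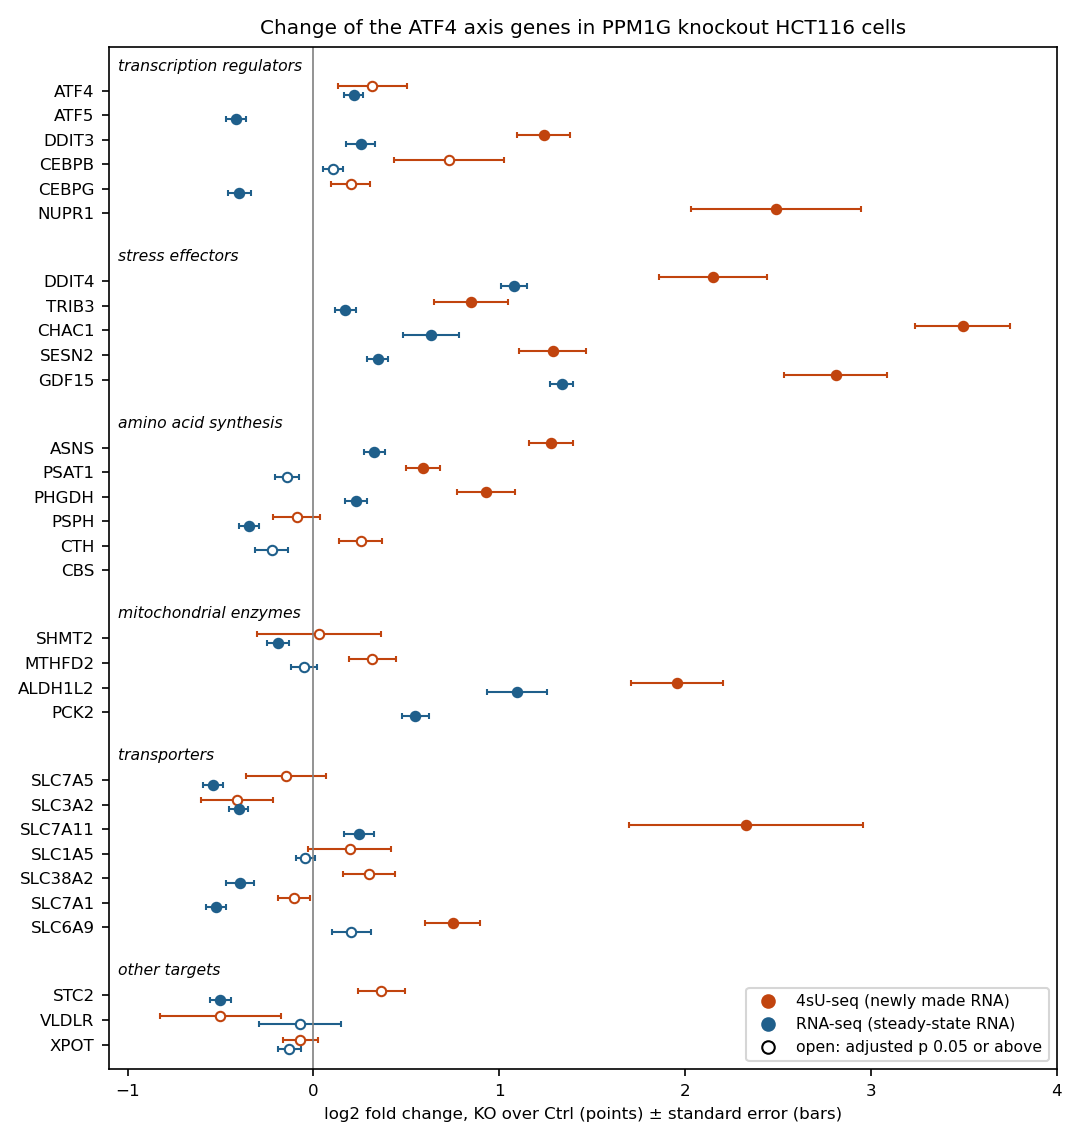
Log2 fold change of KO over Ctrl (horizontal axis, bars are standard errors) for the members, grouped by role, in 4sU-seq and RNA-seq. In newly made RNA the changes run from −0.50 for VLDLR to 3.49 for CHAC1, and the 5 stress effectors are called higher in both assays, while SLC7A1, SLC7A5, SLC3A2 and SLC38A2 are called lower in steady-state RNA.

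The regulators come first. ATF4 RNA (chr22:39519695-39522685 on hg38, plus strand) was abundant in both assays. In 4sU-seq it stood at 156, 182 and 153 CPM in Ctrl and 178, 263 and 172 CPM in KO. The groups overlapped, with KO 2 highest, and the change was not called (0.32 ± 0.19, adjusted p = 0.288). On leaving out 1 library this change ran from 0.02 to 0.43. In RNA-seq ATF4 RNA stood at 199, 187 and 197 against 227, 225 and 225 CPM. The groups did not overlap, and ATF4 rose by 0.22 ± 0.05 (adjusted p = 0.00366), a 1.16-fold change. The 4sU-seq and RNA-seq changes of ATF4 did not differ by the test of the difference between assays (0.09 ± 0.18, adjusted p = 0.858).

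DDIT3 encodes CHOP, a C/EBP family protein that works with ATF4 and promotes death under lasting stress. Its newly made RNA stood at 11.6, 11.2 and 10.1 CPM in Ctrl and 25.0, 29.7 and 23.0 CPM in KO, so that every KO library was above every Ctrl library. This was a rise of 1.24 ± 0.14 (adjusted p = 0.00310). In RNA-seq the levels were 7.52, 8.04 and 7.85 against 9.15, 8.96 and 9.83 CPM, again without overlap, and the rise was 0.25 ± 0.08 (adjusted p = 0.0168). The RNA-seq call of DDIT3 was lost without KO 1 or KO 3, and its adjusted p ran from 0.000674 to 0.0915 over the alternatives.

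CEBPG and CEBPB are C/EBP proteins that pair with ATF4 on DNA. CEBPG fell in steady-state RNA, from 88.4, 96.1 and 98.9 to 69.6, 70.3 and 75.1 CPM, with no overlap (−0.40 ± 0.06, adjusted p = 0.000134). In newly made RNA its levels were 59.2, 56.5 and 57.3 against 68.3, 61.2 and 69.2 CPM, all KO libraries above, but the change was not called (0.20 ± 0.11, adjusted p = 0.238). CEBPB was not called in 4sU-seq (0.73 ± 0.30, adjusted p = 0.139) or RNA-seq (0.10 ± 0.05, adjusted p = 0.125). Its 4sU-seq change ran from 0.28 to 0.93 on leaving out 1 library.

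ATF5, a relative of ATF4 whose mRNA is translated in a similar way, fell in RNA-seq from 41.5, 38.3 and 41.5 to 30.4, 30.4 and 30.2 CPM (−0.42 ± 0.06, adjusted p = 3.58e-05). It was listed at 0 in all 4sU-seq libraries, and this says nothing of its transcription: of the 562 genes that had at least 10 CPM in the RNA-seq Ctrl libraries and 0 in all 4sU-seq libraries, 503 lie inside another gene of GENCODE 29, as ATF5 does. How reads over overlapping genes were counted, and whether both tables were counted alike, is not given. NUPR1, a small stress-induced chromatin protein, had 83 counts in all 4sU-seq libraries together. It stood at 0.0201, 0.0604 and 0.0608 CPM in Ctrl and 0.302, 0.323 and 0.162 CPM in KO and was called higher (2.49 ± 0.46, adjusted p = 0.0134), a call that was lost without Ctrl 1, Ctrl 2 or KO 1. In RNA-seq it had 13 counts and was not tested.

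The 5 stress effectors all rose in both assays, where 12.6% of all genes were called higher in 4sU-seq and 21.5% in RNA-seq. The median log2 change of the stress effectors was 2.15 in newly made and 0.63 in steady-state RNA, the highest medians of the role groups. CHAC1, an enzyme that breaks down glutathione, had the largest change of all tested members in 4sU-seq. Its newly made RNA went from 1.95, 2.21 and 1.91 to 20.8, 30.7 and 16.9 CPM, an 11.3-fold rise (3.49 ± 0.26, adjusted p = 0.000757). Its steady-state RNA went from 2.07, 2.12 and 1.62 to 2.79, 3.42 and 2.86 CPM, a 1.55-fold rise (0.63 ± 0.15, adjusted p = 0.00345). The groups did not overlap in either assay.

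GDF15, a secreted stress hormone of the TGF-beta family, rose from 19.1, 21.5 and 16.2 to 120, 185 and 94.6 CPM in 4sU-seq, where KO 2 was the highest library. In RNA-seq it rose from 38.1, 34.5 and 38.9 to 91.5, 93.1 and 97.0 CPM (1.34 ± 0.06, adjusted p = 2.29e-09), which was the largest RNA-seq change among the tested members. DDIT4, an inhibitor of the growth kinase complex mTORC1 that is also called REDD1, had the next largest 4sU-seq change of this group. Its newly made RNA stood at 4.87, 5.85 and 4.33 CPM in Ctrl and 20.2, 31.4 and 15.3 CPM in KO (2.15 ± 0.29, adjusted p = 0.00508). Its steady-state RNA stood at 8.81, 9.47 and 8.79 against 18.2, 19.7 and 19.3 CPM (1.08 ± 0.07, adjusted p = 4.85e-08). For GDF15 and DDIT4 the groups did not overlap in either assay.

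SESN2, a leucine-binding protein that also restrains mTORC1, stood at 43.9, 46.8 and 39.5 CPM in Ctrl and 101, 131 and 85.9 CPM in KO in 4sU-seq. In RNA-seq the levels were 20.0, 20.5 and 19.8 against 25.2, 26.5 and 24.8 CPM, a rise of 0.35 ± 0.06 (adjusted p = 0.000211). TRIB3, a pseudokinase induced by ATF4 and DDIT3, rose less. Its 4sU-seq levels were 51.7, 56.9 and 46.6 CPM in Ctrl and 91.9, 117 and 71.0 CPM in KO (0.85 ± 0.20, adjusted p = 0.0293). Its RNA-seq levels were 42.0, 37.2 and 41.1 against 44.8, 45.7 and 45.0 CPM (0.17 ± 0.06, adjusted p = 0.0258). The TRIB3 groups did not overlap, but both calls rested on few libraries: the 4sU-seq call was lost without any Ctrl library or KO 1, and the RNA-seq call without any KO library. In 4sU-seq the calls of CHAC1, DDIT3, DDIT4, GDF15 and SESN2 held under each of the alternatives tried for that assay, and the other 8 called members lost theirs under at least 1.

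**Figure D2:**
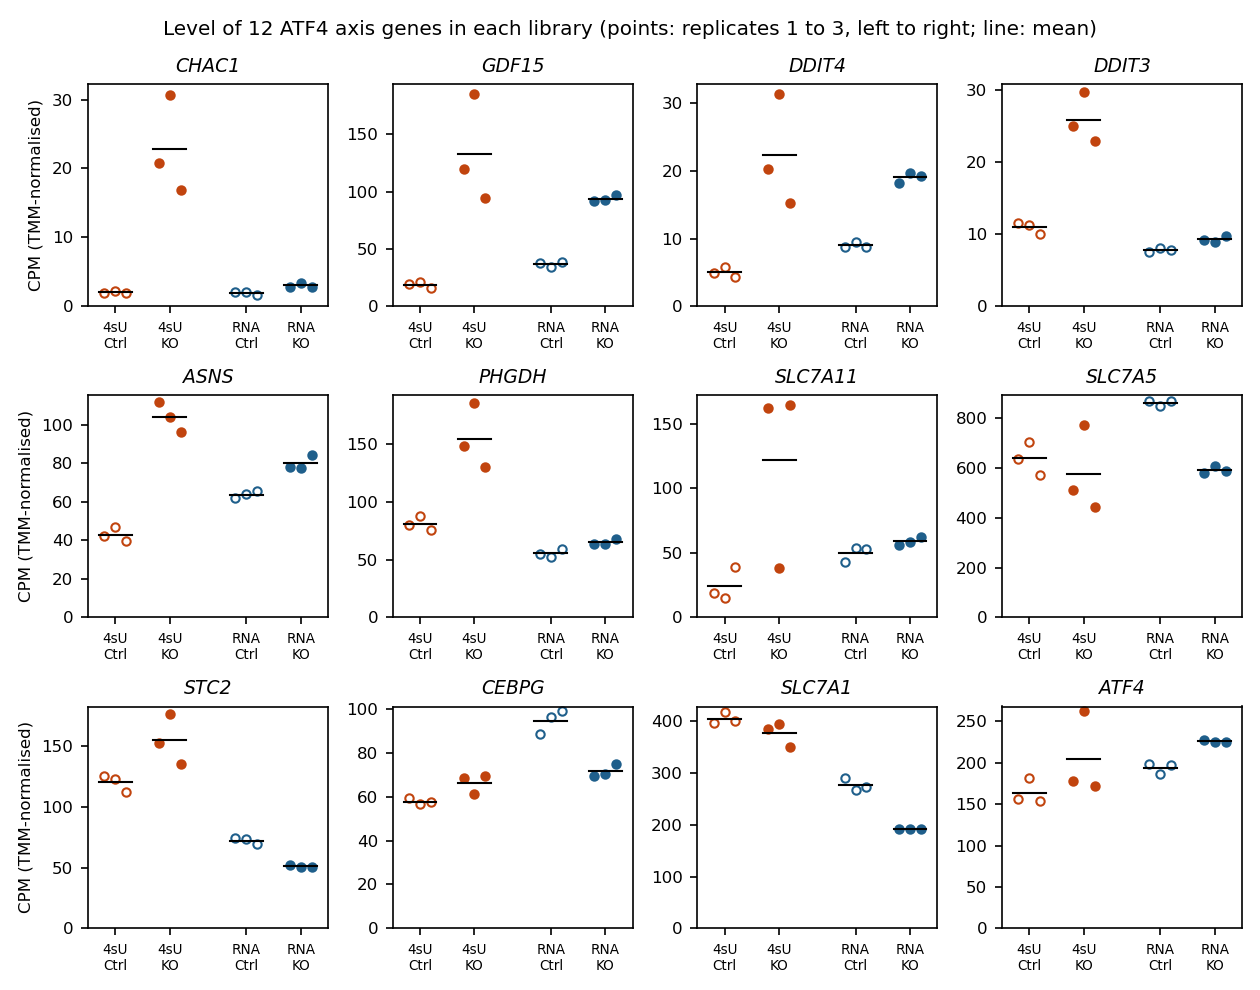
Level in every library (CPM after TMM scaling, vertical axis from 0) for 12 members, with Ctrl (open points) and KO libraries (filled points) of 4sU-seq and RNA-seq side by side, replicates 1 to 3 from left to right and a line at each group's mean. In 4sU-seq the KO libraries of CHAC1 sit at 16.9 to 30.7 CPM above Ctrl libraries at 1.91 to 2.21 CPM, and in RNA-seq at 2.79 to 3.42 above 1.62 to 2.12 CPM.

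Among the enzymes of amino acid synthesis, 3 of the 5 tested members rose in newly made RNA, namely ASNS, PHGDH and PSAT1. The share of all genes called higher there was 12.6%. ASNS makes asparagine and is the classic ATF4 target. Its newly made RNA stood at 42.3, 46.6 and 39.8 CPM in Ctrl and 112, 104 and 96.2 CPM in KO, a 2.42-fold rise (1.28 ± 0.12, adjusted p = 0.00156) in which KO 2 was not the highest library. In RNA-seq it rose from 62.0, 63.9 and 65.4 to 78.0, 77.6 and 84.4 CPM (0.33 ± 0.06, adjusted p = 0.000370).

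Serine is made from a glycolytic intermediate by PHGDH, PSAT1 and PSPH in turn, and the 3 enzymes did not change alike. PHGDH rose in 4sU-seq from 80.1, 88.2 and 75.7 to 149, 186 and 130 CPM (0.93 ± 0.16, adjusted p = 0.0100). In RNA-seq it rose from 54.6, 52.5 and 59.0 to 63.3, 63.6 and 67.8 CPM (0.23 ± 0.06, adjusted p = 0.00650). PSAT1 rose in 4sU-seq from 154, 158 and 152 to 239, 244 and 217 CPM (0.59 ± 0.09, adjusted p = 0.00786). In RNA-seq its groups overlapped at 110, 123 and 130 against 108, 110 and 111 CPM, and the change was not called (−0.14 ± 0.06, adjusted p = 0.0897). PSPH, the last enzyme, was not called in 4sU-seq at 90.8, 93.1 and 86.2 against 81.7, 96.8 and 75.4 CPM (−0.09 ± 0.13, adjusted p = 0.666), but was called lower without KO 2 (−0.27, adjusted p = 0.0360, with a range of 0.0360 to 0.995 over the alternatives). It fell in RNA-seq from 45.0, 42.8 and 43.9 to 34.8, 34.6 and 34.1 CPM, with no overlap (−0.35 ± 0.05, adjusted p = 9.60e-05). Scaling to the ERCC counts ended the RNA-seq call of PSPH and the 4sU-seq calls of ASNS, PHGDH and PSAT1. The 4sU-seq call of PSAT1 was also lost without any Ctrl library, and that of PHGDH without Ctrl 1 or Ctrl 3.

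CTH makes cysteine from cystathionine. It was not called in 4sU-seq (0.25 ± 0.12, adjusted p = 0.181) or in RNA-seq (−0.23 ± 0.09, adjusted p = 0.0513). CBS, the enzyme before it, was near the floor, with 57 counts in the 4sU-seq libraries together and 7 in RNA-seq, and was not tested. A near-identical copy, CBSL, is listed in the tables too, so reads of CBS may have been split.

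The mitochondrial members, which serve the folate pathway and the making of phosphoenolpyruvate, moved apart. ALDH1L2, which oxidises formyl-folate in mitochondria, rose in 4sU-seq from 0.524, 0.495 and 0.632 to 2.49, 1.48 and 2.45 CPM, with KO 2 the lowest of the KO libraries (1.96 ± 0.25, adjusted p = 0.00415). It rose in RNA-seq from 0.962, 0.986 and 1.01 to 2.13, 2.18 and 1.99 CPM, a 2.14-fold change (1.10 ± 0.16, adjusted p = 7.81e-05). PCK2, the mitochondrial phosphoenolpyruvate carboxykinase, rose in RNA-seq from 11.4, 9.92 and 11.03 to 15.3, 16.6 and 15.4 CPM (0.55 ± 0.07, adjusted p = 4.01e-05). Like ATF5 it lies inside another gene and was listed at 0 in all 4sU-seq libraries.

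SHMT2, which makes glycine and a one-carbon unit from serine, fell in RNA-seq from 202, 180 and 202 to 171, 168 and 171 CPM (−0.19 ± 0.06, adjusted p = 0.0154), a call that was lost in 9 of the 15 alternatives. Its 4sU-seq value turned on 1 library. The levels were 96.5, 124 and 93.9 CPM in Ctrl and 82.9, 167 and 71.0 CPM in KO, where KO 2 was the highest of all 6 libraries and the other KO libraries the lowest. The change was 0.03 ± 0.33 (adjusted p = 0.962) with KO 2 and −0.51 (adjusted p = 0.0215) without it, and the adjusted p ran from 0.0215 to 0.986 over the alternatives. MTHFD2, the next enzyme of that pathway, was abundant at 279 to 343 CPM in RNA-seq and was called in neither 4sU-seq (0.32 ± 0.13, adjusted p = 0.132) nor RNA-seq (−0.05 ± 0.07, adjusted p = 0.564).

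Of the 7 amino acid transporters, 4 fell and 1 rose in steady-state RNA, while 2 rose and none fell in newly made RNA. Of all genes, 26.8% were called lower and 21.5% higher in RNA-seq, and 12.6% higher and 6.98% lower in 4sU-seq. SLC7A5 and SLC3A2 form the LAT1 exchanger, which brings in leucine and other large neutral amino acids. SLC7A5 fell in RNA-seq from 870, 848 and 868 to 578, 608 and 590 CPM (−0.54 ± 0.05, adjusted p = 3.17e-06). SLC3A2, the heavy chain shared with SLC7A11, fell from 279, 276 and 283 to 209, 214 and 212 CPM (−0.40 ± 0.05, adjusted p = 2.09e-05). In neither gene did the RNA-seq groups overlap.

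In newly made RNA the same pair was again split by KO 2. SLC7A5 stood at 638, 704 and 573 CPM in Ctrl and 511, 774 and 441 CPM in KO (−0.15 ± 0.22, adjusted p = 0.674). SLC3A2 stood at 319, 358 and 309 against 216, 324 and 201 CPM (−0.41 ± 0.20, adjusted p = 0.194). Without KO 2 both were called lower, SLC7A5 at −0.49 (adjusted p = 0.00954) and SLC3A2 at −0.73 (adjusted p = 0.00111). Over the alternatives the adjusted p ran from 0.00954 to 0.991 for SLC7A5 and from 0.000753 to 0.775 for SLC3A2, which was also called lower in the fit over all 12 libraries. The cause of the distance between KO 2 and the other KO libraries was not tested.

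SLC7A1, the main arginine and lysine transporter, fell in RNA-seq from 291, 267 and 272 to 193, 192 and 191 CPM (−0.53 ± 0.05, adjusted p = 4.00e-06). In 4sU-seq its KO libraries, at 384, 396 and 351 CPM, also lay below the Ctrl libraries at 397, 417 and 401 CPM, but the change was small and not called (−0.10 ± 0.09, adjusted p = 0.456). SLC38A2, which takes up small neutral amino acids such as glutamine and alanine, fell in RNA-seq from 700, 845 and 854 to 591, 588 and 645 CPM (−0.40 ± 0.08, adjusted p = 0.000792). In 4sU-seq it stood at 568, 550 and 625 against 780, 581 and 784 CPM, with KO 2 between the Ctrl libraries, and was not called (0.30 ± 0.14, adjusted p = 0.183). Without KO 2 it was called higher (0.36, adjusted p = 0.0105), and its adjusted p ran from 0.00713 to 0.654 over the alternatives.

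SLC7A11 is the cystine/glutamate exchanger that feeds glutathione synthesis. Its newly made RNA stood at 18.8, 15.0 and 38.9 CPM in Ctrl and 162, 38.5 and 165 CPM in KO. KO 2 lay just under Ctrl 3, so the groups overlapped, and the rise of 2.33 ± 0.63 was barely called (adjusted p = 0.0459); it was lost without any single library other than KO 2. In RNA-seq the levels were 42.7, 53.8 and 52.8 against 56.1, 58.1 and 62.5 CPM (0.24 ± 0.08, adjusted p = 0.0236), a call that was lost without KO 2 or KO 3. An exon of the antisense gene SLC7A11-AS1 overlaps SLC7A11; its mean level was 0.56 CPM in Ctrl and 2.74 CPM in KO in 4sU-seq. SLC6A9, a glycine transporter, rose in 4sU-seq from 18.1, 17.2 and 15.9 to 28.2, 33.3 and 24.7 CPM (0.75 ± 0.15, adjusted p = 0.0170), a call that was lost without any Ctrl library or KO 1, and was not called in RNA-seq (0.20 ± 0.11, adjusted p = 0.133). SLC1A5, which imports glutamine, was called in neither 4sU-seq (0.19 ± 0.22, adjusted p = 0.588) nor RNA-seq (−0.04 ± 0.05, adjusted p = 0.526). Its 4sU-seq change ran from −0.15 to 0.35 on leaving out 1 library.

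Of the remaining members, STC2, a secreted glycoprotein, fell in RNA-seq from 74.4, 73.3 and 69.1 to 52.1, 50.6 and 50.5 CPM (−0.50 ± 0.06, adjusted p = 7.32e-06). Its newly made RNA lay higher in every KO library, at 126, 123 and 112 against 153, 177 and 136 CPM, but was not called (0.37 ± 0.13, adjusted p = 0.0938). VLDLR, a lipoprotein receptor at 0.808 to 1.20 CPM in RNA-seq, and XPOT, which exports tRNA from the nucleus, were called in neither assay.

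The changes in newly made and in steady-state RNA were then set against each other. The difference between assays (the 4sU-seq change minus the RNA-seq change, tested as an interaction over all 12 libraries) could be tested for 27 members. It was above 0 for 25 and below 0 for SLC3A2 and VLDLR, with a median of 0.61 against 0.025 over all 15863 genes tested. It was called higher for 10 members and lower for none, where 1.25% of all genes were called higher and 1.25% lower. At an unadjusted p below 0.05 the member counts were 18 and 0, and by DESeq2 15 and 0. DESeq2 called the difference for 1060 of all genes, 44.7% of them higher, against 397 by edgeR. All genes were not counted at an unadjusted p. Among the called members CHAC1 differed most (2.85 ± 0.28, adjusted p = 0.00164), followed by GDF15 (1.46 ± 0.26, adjusted p = 0.0185), DDIT3 (0.98 ± 0.14, adjusted p = 0.00683), ASNS (0.95 ± 0.13, adjusted p = 0.00542) and SESN2 (0.94 ± 0.17, adjusted p = 0.0210).

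The 10 called members fall into 3 kinds. CHAC1, GDF15, DDIT3, ASNS, SESN2 and PHGDH (0.70 ± 0.15, adjusted p = 0.0410) rose in both assays and by more in newly made RNA. PSAT1 (0.73 ± 0.11, adjusted p = 0.00750) rose in newly made RNA and was not called in steady-state RNA. STC2 (0.87 ± 0.13, adjusted p = 0.00748), CEBPG (0.60 ± 0.13, adjusted p = 0.0352) and SLC7A1 (0.42 ± 0.09, adjusted p = 0.0388) fell in steady-state RNA and were not called in newly made RNA. For the other members that fell in RNA-seq and were tested in both assays, PSPH, SHMT2, SLC38A2, SLC3A2 and SLC7A5, the difference was not called. SLC7A11 (2.12 ± 0.68, adjusted p = 0.139), DDIT4 (1.06 ± 0.29, adjusted p = 0.0833) and SLC38A2 (0.71 ± 0.19, adjusted p = 0.0849) had differences as large as those of called members that were not called. The same held for ALDH1L2 (0.88), TRIB3 (0.67), CEBPB (0.61), SLC6A9 (0.54) and CTH (0.48). SLC7A11, DDIT4 and SLC38A2 were called without the 4sU-seq library KO 2, at 2.55 (adjusted p = 0.000868), 0.78 (adjusted p = 0.00918) and 0.86 (adjusted p = 0.000721), and also by DESeq2 and with the replicate number as a block. TRIB3 was likewise called in each of these settings (0.52 without KO 2, adjusted p = 0.0232). ALDH1L2, SLC6A9 and CTH were also called without KO 2. Over the alternatives the adjusted p ran from 0.000385 to 1.00 for SLC7A11, from 0.00253 to 0.244 for DDIT4 and from 0.000721 to 1.00 for SLC38A2. PSPH, SHMT2, SLC3A2 and SLC7A5 were not called without KO 2 either. Under ERCC scaling 1 member, CHAC1, kept its call. Without the 4sU-seq library KO 2 the count was 17, without 4sU-seq Ctrl 1 or Ctrl 3 it was 5, and without any 1 RNA-seq library it was 5 or 6. The number of all genes with a called difference moved too. From 397 it went to 7 under ERCC scaling and to 4364 without KO 2, 54.8% of those higher. It was 129 without Ctrl 1, 131 without Ctrl 3, and 86 to 226 without any 1 RNA-seq library.

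**Figure D3:**
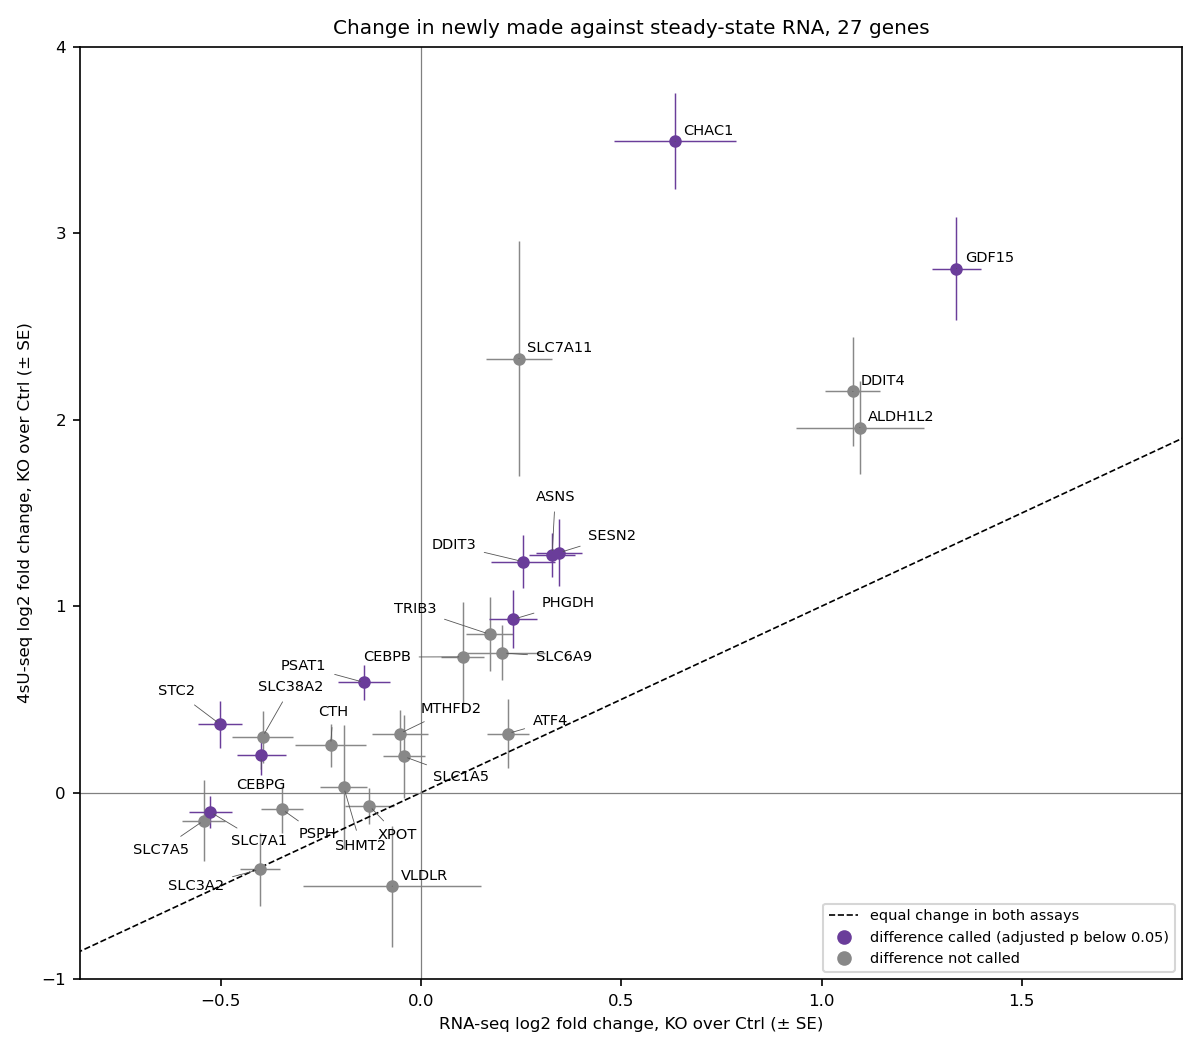
Log2 fold change of KO over Ctrl in 4sU-seq (vertical axis) against RNA-seq (horizontal axis) for the 27 members tested in both, with standard errors as bars and a dashed line of equal change. Purple points are the 10 members whose difference between assays was called, and 25 of the 27 differences are above 0.

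Gene length moved with the 4sU-seq change over all protein-coding genes, and the members are short. None of the 28 tested members spans more than 100 kb. Over all tested protein-coding genes the median log2 change in 4sU-seq was −0.04 under 10 kb, −0.07 from 10 to 30 kb and −0.0038 from 30 to 100 kb, and 0.36 above 300 kb. The members' medians in the 3 classes that hold them were 0.98 (8 members), 0.34 (8) and 0.26 (12). In Ctrl cells the 4sU-seq level over the RNA-seq level of the members had a median log2 ratio of −0.24, against 0.19 for all genes, and 12 of 27 members were above the median of all genes. Exons of 13 members overlap exons of another gene in GENCODE 29, among them DDIT3, DDIT4, ASNS, ALDH1L2, SLC6A9 and SLC7A11, and the strand setting of the counting is not given, so reads of both genes may be mixed there.

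ATF4 paired with a C/EBP protein binds a composite site called the C/EBP-ATF response element, whose core reads TGATGNAA. RefSeq promoter windows of 300 bases, from 250 before to 50 after a gene's start (GRCh38.p14), were searched for this core on both strands; 26 members had at least 1 window. The core was found for 6 of the 26 (23.1%), and for 1217 of all 27305 genes with a window (4.46%). The stretches around the 6 matches are shown because 4 of these genes, ASNS, CHAC1, CEBPG and SLC7A1, were among the 10 members whose difference between assays was called, all of which had a window. Each is written 5′ to 3′ on the strand of its gene, with the match in capitals:
ASNS: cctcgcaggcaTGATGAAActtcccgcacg
CHAC1: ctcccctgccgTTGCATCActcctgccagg
CEBPG: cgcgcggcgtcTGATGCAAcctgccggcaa
SLC7A1: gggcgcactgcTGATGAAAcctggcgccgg
SLC1A5: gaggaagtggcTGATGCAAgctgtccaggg
SLC3A2: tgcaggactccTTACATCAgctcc
The ASNS stretch lies at chr7:97872458-97872487 on the minus strand, with the match starting 68 bases upstream of the start, where the nutrient-sensing element of this promoter is known to lie. The CHAC1 stretch lies at chr15:40953251-40953280 on the plus strand, with its match on the other strand, starting 209 bases upstream. For CEBPG (chr19:33374060-33374089, plus strand) and SLC1A5 (chr19:46784893-46784922, minus strand) the match starts 42 and 97 bases upstream. For SLC7A1 (chr13:29595663-29595692, minus strand) and SLC3A2 (chr11:62881725-62881748, plus strand) it lies just after the start. Genes with a match did not behave alike: ASNS and CHAC1 rose in both assays, CEBPG, SLC7A1 and SLC3A2 fell in RNA-seq, and SLC1A5 was called in neither assay. A match is a run of letters, not a measured binding site, and genes without one may carry the element outside this window.

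Other genes of the pathway were examined as lists. Upstream of ATF4, none of the 16 tested eIF2 kinases, eIF2 and eIF2B subunits and phosphatase regulators was called in 4sU-seq. Of all genes 12.6% were called higher there and 6.98% lower. At an unadjusted p below 0.05 and by DESeq2, 0 of the 16 were higher and 2 lower. Their median was −0.14, and that of all genes 0.050. In RNA-seq 13 of 18 fell and 1 rose, where 26.8% of all genes were called lower and 21.5% higher. The log2 changes of the kinases in 4sU-seq and RNA-seq were −0.24 and −0.32 for EIF2AK1 (the haem-sensing kinase HRI), 0.18 and 0.0055 for EIF2AK2 (PKR), 0.26 and −0.13 for EIF2AK3 (PERK), and −0.22 and −0.40 for EIF2AK4 (GCN2, which senses uncharged tRNA). EIF2AK1 and EIF2AK4 were called lower in RNA-seq. EIF2B1, a subunit of the factor that recharges eIF2, fell in RNA-seq from 84.4, 78.8 and 81.4 to 52.5, 50.6 and 56.0 CPM (−0.62 ± 0.06, adjusted p = 2.04e-06). OMA1, a mitochondrial protease that relays mitochondrial stress to eIF2, was the gene of this list that rose, from 18.3, 17.03 and 20.8 to 32.3, 30.3 and 34.2 CPM (0.79 ± 0.08, adjusted p = 2.16e-06); it had 1 count in all 4sU-seq libraries together, so its newly made RNA was not tested.

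Further ATF4 targets outside the members were examined next, in a list chosen with earlier results of these data known. In 4sU-seq, where 12.6% of all genes were called higher and 6.98% lower, 14 of 27 rose and none fell (1 was lower at an unadjusted p below 0.05 and 1 by DESeq2), with a median of 0.41. ADM2, a secreted peptide, went from 1.61, 1.69 and 1.65 to 6.14, 8.85 and 5.11 CPM (2.02 ± 0.23, adjusted p = 0.00282). TSC22D3, the glucocorticoid-induced leucine zipper protein, went from 6.45, 6.15 and 5.86 to 22.2, 23.7 and 18.0 CPM (1.79 ± 0.15, adjusted p = 0.00111). LAMP3, a lysosomal membrane protein, rose by 1.70 ± 0.14 (adjusted p = 0.00116) and JDP2, a leucine zipper repressor, by 1.39 ± 0.12 (adjusted p = 0.00129). In RNA-seq 11 of 28 rose and 7 fell, with a median of 0.050, against 21.5% and 26.8% of all genes; KLHL24 rose by 0.85 ± 0.09 (adjusted p = 3.52e-06) and MTHFD1L, a mitochondrial folate enzyme, changed by −0.69 ± 0.05 (adjusted p = 3.53e-07). The difference between assays, called higher for 1.25% of all genes, was called higher for 6 of 27, JDP2 (1.12) and TSC22D3 (1.16) among them, and lower for none (0 at an unadjusted p below 0.05 and 0 by DESeq2).

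Cytosolic tRNA synthetases, which charge tRNAs with amino acids and are known ATF4 targets, fell in steady-state RNA in most cases. In 4sU-seq 2 of 12 rose (16.7%), CARS and GARS, a share near the 12.6% of all genes; CARS, the cysteine enzyme, went from 52.9, 53.01 and 48.1 to 88.3, 110 and 77.2 CPM (0.84 ± 0.15, adjusted p = 0.0134). In RNA-seq 10 of the 12 fell (83.3%, against 26.8% of all genes) and none rose (0 at an unadjusted p below 0.05 and 0 by DESeq2). IARS, the isoleucine enzyme, went from 461, 456 and 468 to 343, 334 and 348 CPM (−0.43 ± 0.05, adjusted p = 1.35e-05), YARS changed by −0.45 ± 0.06 (adjusted p = 2.03e-05) and GARS by −0.43 ± 0.06 (adjusted p = 2.88e-05). The difference between assays was above 0 for all 12 and called for 4 (33.3%, against 1.25% of all genes called higher), CARS, EPRS, GARS and YARS, with a median of 0.45.

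Genes of neighbouring stress pathways were counted in the same way, against 12.6% of all genes called higher in 4sU-seq, and 21.5% higher and 26.8% lower in RNA-seq. Of 18 genes of the XBP1 and ATF6 arms of the unfolded protein response, which raise chaperones of the endoplasmic reticulum, 2 rose in 4sU-seq (11.1%, median 0.018), a share near that of all genes, and in RNA-seq 4 rose and 9 fell. HERPUD1, which ATF4 also regulates, rose by 1.11 ± 0.11 in 4sU-seq (adjusted p = 0.00182), while the chaperone-like factor MANF changed by −0.44 ± 0.06 in RNA-seq (adjusted p = 3.24e-05). Of the p53 targets, 2 of 14 rose in 4sU-seq (14.3%, also near the share of all genes) and 10 of 16 in RNA-seq, where 3 fell; RRM2B, a subunit of ribonucleotide reductase, rose in both (1.09 ± 0.20, adjusted p = 0.0132, and 0.86 ± 0.10, adjusted p = 1.30e-05). Their medians were 0.34 and 0.27, and the difference between assays was called for none of 14 (0 at an unadjusted p below 0.05 and 0 by DESeq2). Of all genes 1.25% were called higher and 1.25% lower in the difference, so none of 14 is near the share of all genes. One-carbon and serine genes outside the members had a median of −0.32 in 4sU-seq and of −0.22 in RNA-seq. In 4sU-seq 1 of 13 rose and 3 fell, namely ATIC, MTHFD1 and TYMS, where 6.98% of all genes were called lower. In RNA-seq 3 of 14 rose and 7 fell. MTHFD1 was among those that rose there (0.24), and its difference between assays was called below 0 (−0.90, adjusted p = 0.00596). TYMS, which makes thymidylate, changed by −0.83 ± 0.17 in 4sU-seq (adjusted p = 0.0193), and ATIC, an enzyme of purine synthesis, by −0.62 ± 0.11 in 4sU-seq (adjusted p = 0.0126) and −0.54 ± 0.06 in RNA-seq (adjusted p = 5.18e-06).

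**Figure D4:**
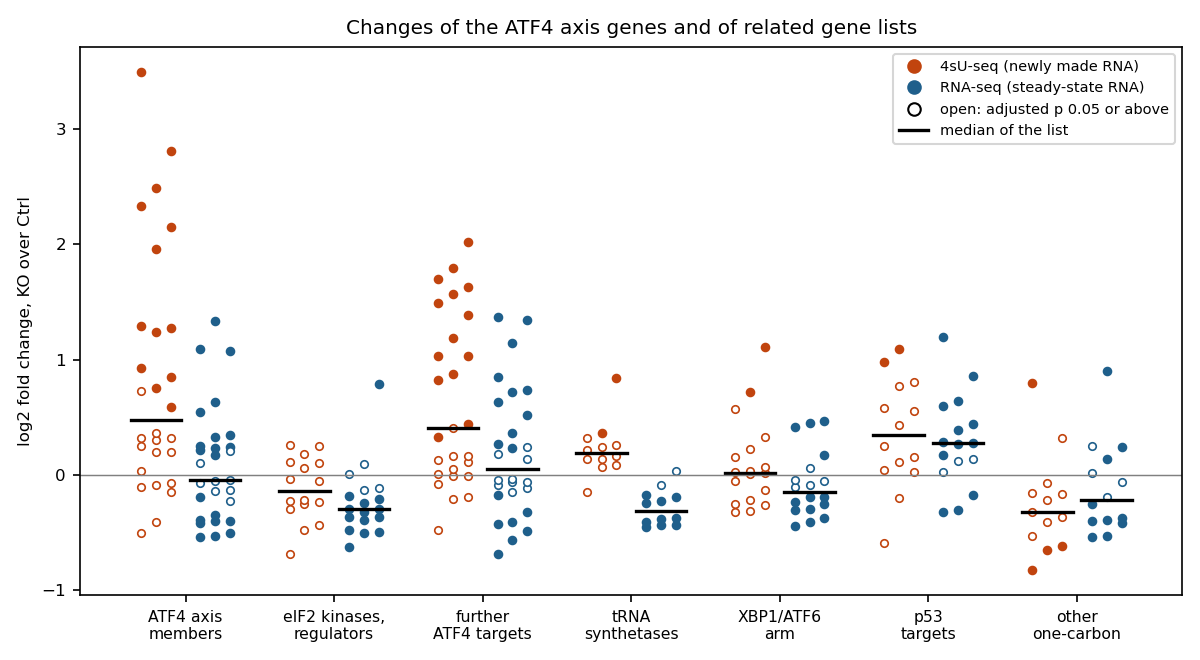
Log2 fold change of KO over Ctrl for every tested gene of the 7 lists in 4sU-seq and RNA-seq (each point is 1 gene, the bar is the median of the list). The median of the members is 0.48 in newly made and −0.043 in steady-state RNA, that of the further ATF4 targets 0.41 and 0.050, and that of the p53 targets 0.34 and 0.27.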

How the data were processed

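Newly made RNA (4sU-seq) and steady-state RNA (RNA-seq) were measured in Ctrl and KO HCT116 cells. The authors deposited raw counts per gene, 1 table per assay, with 92 ERCC species. Per the submitters' processing notes, FastQC 0.11.2, HISAT2 2.1.0, SAMtools 1.3 and featureCounts (version not given) were used with hg38. For the annotation, counting feature and strand setting, the answer is: not given in the sources used here. Symbols came from the tables, coordinates from GENCODE 29 and promoter windows from RefSeq (GRCh38.p14).

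From the gene counts without ERCC, filterByExpr with a minimum count of 10 chose the genes to test and TMM set the scaling factors. KO and Ctrl libraries of an assay were compared by the two-sided quasi-likelihood F test of edgeR 4.0.16, with Benjamini-Hochberg adjustment over all genes tested (threshold 0.05). A standard error is the absolute log2 change over the square root of F. The difference between assays was the interaction over all 12 libraries and genes kept in both. A library's 3-count floor was 0.0294 to 0.0378 CPM in 4sU-seq and 0.0706 to 0.0969 CPM in RNA-seq. The model fits were tested on simulated data. Alternatives were other scalings and filters, DESeq2 1.42.0, a replicate block, 1 fit of all libraries and leaving out each library. R 4.3.3, limma 3.58.1, Python 3.11.15, pandas 2.3.3 and matplotlib 3.10.9 were used.

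The members and lists were chosen with earlier results of these data known. Named genes are the 31 members, PPM1G, the eIF2 kinases and, per other list and assay, up to 4 called genes with the smallest p (1 where fewer than 3 were called); others in the text were chosen after their values were seen. Library values are given for members called in any comparison and for ATF4. One gene that this rule would name is not reported here.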

Additional observations from a re-analysis of the deposited data

Results flagged for a closer look

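For 10 members the change in newly made RNA and the change in steady-state RNA differed by the interaction test of edgeR over 12 libraries, always with the higher value in 4sU-seq. In log2 units the difference was 2.85 for CHAC1, 1.46 for GDF15, 0.98 for DDIT3, 0.95 for ASNS, 0.94 for SESN2, 0.87 for STC2, 0.73 for PSAT1, 0.70 for PHGDH, 0.60 for CEBPG and 0.42 for SLC7A1. CHAC1 was called in all 22 alternatives. ASNS, DDIT3, PSAT1 and STC2 were called in 21, losing the call under ERCC scaling, GDF15 in 13, SESN2 in 10, CEBPG in 9, and PHGDH and SLC7A1 in 7 each. Both assays were scaled to their own libraries, so a difference is relative to the other genes of each assay, and the cause of the differences was not tested.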

How the results depend on the processing

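Of the called member results, 13 in 4sU-seq gave 193 values over the alternatives, of which 165 stayed called and 28 did not; 21 in RNA-seq gave 313, with 287 and 26; and 10 differences between assays gave 220, with 152 and 68. None changed direction. Calls held in every alternative for 5 members in 4sU-seq, for 12 in RNA-seq (ALDH1L2, ASNS, ATF5, CEBPG, CHAC1, DDIT4, GDF15, PCK2, SESN2, SLC7A1, SLC7A5 and STC2) and for CHAC1 in the difference. Among members not called, SHMT2 in 4sU-seq became lower without KO 2 (−0.51) and without both libraries numbered 2 (−0.34), an alternative chosen after seeing the data, with −0.51 to 0.25 on leaving out 1 library, and SLC1A5 in RNA-seq became higher with library size alone (0.14).

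In 4sU-seq 4166 genes were called, 64.4% of them higher; the count was 716 under ERCC scaling (93.9% higher) and 10893 without both libraries numbered 2, and the higher share was 78.3% with library size alone. Leaving out 1 library gave 1322 to 11673 genes, the highest without KO 2. Members called higher, 13, became 6 under ERCC scaling and 7 to 14 on leaving out 1 library. Members called lower, 0, became 1 (SLC3A2) in the fit of all 12 libraries, 3 without both libraries numbered 2, and 0 to 4 on leaving out 1 library, 4 without KO 2.

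In RNA-seq 9871 genes were called and 4239 in the fit of all 12 libraries, where members called higher went from 12 to 6 and lower from 9 to 5. The 397 genes with a called difference, 50.1% of them higher, became 7 under ERCC scaling (71.4% higher), 190 without a filter, 1060 by DESeq2, 3927 without both 4sU-seq libraries numbered 2, and 108 with RNA-seq KO 1 and KO 2 added together, which was also chosen after seeing the data because those libraries differed least. Leaving out 1 library gave 86 to 4364. The higher share was 27.6% with library size alone and 32.5% with TMM over all libraries. Members with a called difference, 10, became 1, 6, 15, 17 and 5 in the first 5 of these settings and 5 to 17 on leaving out 1 library. The cause was not tested. RNA-seq KO 1 and KO 2 differed by a chi-square of 1.71 per gene, against 10.5 to 19.0 for the other RNA-seq pairs within a group. Whether KO 1 and KO 2 were separate cultures is not stated in the labels.

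The main tests did not pair libraries by replicate number. The deviations of the libraries numbered 1 correlated at −0.068 in 4sU-seq and −0.037 in RNA-seq. Those numbered 2 correlated at 0.71 and 0.16, and those numbered 3 at 0.70 and 0.24. In 4sU-seq KO 1 correlated with Ctrl 3 at 0.59 and with Ctrl 2 at −0.60. Whether same-numbered 4sU-seq libraries share a source of variation was not tested. With the replicate number as a block, 6907 genes were called in 4sU-seq, 10384 in RNA-seq and 657 in the difference. Members called higher and lower were then 15 and 1 (SLC3A2) in 4sU-seq, 12 and 10 in RNA-seq, and 14 and 0 in the difference. Depth limits NUPR1 and CBS, whose counts were few.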

Other observations

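Steady-state levels of the members, per kb of merged GENCODE 29 exon length, spanned several orders of magnitude. In Ctrl cells the mean RNA-seq level was 182 CPM per kb for SLC7A5, 121 for SLC38A2, 77.3 for ATF4, 64.8 for MTHFD2 and 61.8 for SLC1A5. Other transporters were lower, SLC7A11 at 5.16 and SLC6A9 at 1.36 CPM per kb. The lowest members were ALDH1L2 (0.116), VLDLR (0.103), NUPR1 (0.0061) and CBS (0.0032). Of the stress effectors, GDF15 stood at 17.8, TRIB3 at 11.7, SESN2 at 5.82, DDIT4 at 4.38 and CHAC1 at 0.942 CPM per kb. In KO cells GDF15 stood at 45.0, DDIT4 at 9.26 and CHAC1 at 1.47 CPM per kb. Merged exon length takes in all annotated isoforms, so these levels understate genes with long unused exons.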
